A study of Mus musculus with 25 samples.

Results

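The measurement described here was the difference between 2 subsets of conventional dendritic cells (cDC) in how they responded to R848, gene by gene, in the Peyer's patches of mice. It used 16 of the series' 25 Affymetrix Mouse Gene 1.0 ST arrays, chosen by the subset and treatment in the sample titles. They were 5 arrays of untreated CD11b+ cDC, 3 of CD11b+ cDC after R848, 3 of untreated CD8α+ cDC and 5 of CD8α+ cDC after R848. CD11c+ cells were enriched with magnetic beads before the sort. All cells came from wild-type female C57BL/6 mice aged 6 to 8 weeks. Mice of the R848 groups had received R848 by gavage 9 h earlier, and the untreated groups carry the treatment label none, so no vehicle control was compared. Titles of the R848 samples also contain the words steady state, while their treatment and source labels give R848. Each replicate pooled the Peyer's patches of 42 mice, and the series record describes replicates as independent. The CD11b+ cDC gate was SIRPα+ and MHC class II+, CD11c-high, BST2-, CD11b-intermediate, CD8α- and CD4-. The CD8α+ cDC gate was SIRPα- and MHC class II+, CD11c-high, BST2-, CD11b-, CD8α+ and CD4-. The RNA input of 2 to 20 ng was amplified before labelling. The response of a subset is the level after R848 minus the untreated level in log2 units, and the response difference is the response of CD8α+ cDC minus that of CD11b+ cDC. It equals the difference between the subsets after R848 (end difference) minus that between the untreated subsets (start difference), so a gene with unequal start levels can have a large response difference while both subsets end alike. A gene near the lowest signal in 1 subset can hardly fall there, so a fall in the other alone gives a response difference. The comparison asks which genes responded to R848 unequally in the subsets.

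Peyer's patches are lymphoid tissue of the small intestine in which dendritic cells take up gut antigen and present it to T cells. Dendritic cells with CD8α belong to the cDC1 lineage, which is known for cross-presentation and carries XCR1, CLEC9A and the double-stranded RNA receptor TLR3, whereas CD11b+ SIRPα+ cells belong to the cDC2 lineage. R848 (resiquimod) is a small molecule that activates TLR7 in mice, a receptor of endosomes that signals through MyD88 to NF-κB and interferon regulatory factors. Stimulated dendritic cells mature, which involves co-stimulatory molecules, CCR7-guided migration and reduced synthesis of MHC class II, and they answer type I interferon released in the tissue.

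The row names of the deposited table fitted the columns of the R848 arrays. The untreated CD11b+ and the untreated CD8α+ arrays lay in 2 other array sets, each with a different row order, and their rows were matched to the R848 arrays by a monotone alignment that keeps the row order. Rows with an accepted partner in both sets numbered 21191 of 28939 aligned rows (73.2%), and 15636 of 19938 genes could be tested. Each R848 response compares 1 array set with another, so treatment and set cannot be told apart in either response. The start difference spans both untreated sets, so subset and set cannot be told apart there, and the response difference contains it. The end difference lies within 1 array set and needed no matching. Of 927 measured olfactory receptor, vomeronasal receptor and similar genes that served as negative controls, 3 were called in the response difference (0.324%), namely Olfr1391 (1.35), Olfr767 (-1.95) and Vmn2r9 (-2.19). Their CD8α+ level was 3.44 untreated and 3.55 after R848 for Olfr1391, 5.38 and 5.03 for Olfr767, and 5.67 and 5.47 for Vmn2r9. In each of them the untreated CD11b+ mean stood apart from the other 3 group means. Without the fold minimum, 122 of the 927 negative controls were called, beside 3272 of 15636 genes, so the low share rests on that minimum. Of 55 called genes with a further accepted transcript cluster, 44 had the same sign there. Deposited array medians ran from 4.54 to 4.88, and the correlation of an array with its group's other arrays was at least 0.984. Untreated CD11b+ replicates 4 and 5 had deposited upper quartiles of 6.87 and 6.89, against 6.71 to 6.74 in the other 3. Without replicates 4 and 5, 1086 response differences were called. The number of arrays limits the precision, and the median SE of a response difference was 0.164.

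Of 15 tested lineage genes of CD8α+ cDC, 14 fell in CD8α+ cDC, among them Cxcr3, Tlr3 and Xcr1, while in CD11b+ cDC 2 rose and 3 fell. A higher response in CD8α+ cDC was called for 8 of 20 co-stimulation and maturation genes and 6 of 13 NF-κB target genes, among them Stat4, Cd274 and Gadd45b, which started lower in CD8α+ cDC. In the limma fit over all genes, 973 of 15636 genes (6.22%) were called, at a Benjamini-Hochberg adjusted p under 0.05 and at least 1 log2 unit. The response of CD8α+ cDC was higher for 462 of them (2.95%) and lower for 511 (3.27%). These shares of all genes are the background for every list count given here. The response of CD8α+ cDC had 1686 called genes (10.8%; 813 rose, or 5.2%, and 873 fell, or 5.58%), and that of CD11b+ cDC had 1076 (6.88%; 536 rose, or 3.43%, and 540 fell, or 3.45%). On the deposited scale the split was 827 higher and 294 lower, and the median response difference of all genes was 0.21 there against 0.01 after quantile normalization. The deposited scale likewise moved the CD11b+ response to 406 that rose and 772 that fell. Calls that held on the deposited scale and after cyclic loess as well numbered 734 (4.69% of genes tested; 440 higher, or 2.81%, and 294 lower, or 1.88%).

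Among the 511 genes with a lower response in CD8α+ cDC, 266 fell in CD8α+ cDC with no call in CD11b+ cDC, 56 fell in both, and 56 rose in CD11b+ cDC with no call in CD8α+ cDC. Another 6 rose in both, 6 fell in CD8α+ and rose in CD11b+ cDC, and 121 were called in neither single response. Of the 462 genes with a higher response, 195 rose in CD8α+ cDC with no call in CD11b+ cDC, 89 fell in CD11b+ cDC with no call in CD8α+ cDC, and 63 rose in both. A further 8 rose in CD8α+ and fell in CD11b+ cDC, 6 fell in both, and 101 were called in neither. The subsets lay closer together after R848 than before for 674 called genes (69.3%), farther apart for 284 (29.2%), and in the opposite order, by at least 1 log2 unit on both sides, for 15. Genes called higher had a median start difference of -1.01 and a median end difference of 0.33, and genes called lower had 0.98 and -0.36. Genes were called on the end minus the start difference, so these shares and medians are parts of that value. They are no test of convergence, and the share with a narrower gap was not counted over all genes. The start difference also spans both untreated array sets and matched rows, unlike the end difference. Start levels differed by a call in 493 of the 973 genes (50.7%) and end levels in 237 (24.4%). Over all genes, 922 (5.9%) were called at the start, 2.71% higher and 3.18% lower in CD8α+ cDC, and 531 (3.4%) at the end, 1.34% higher and 2.05% lower. On the deposited scale the start calls split into 247 higher and 834 lower.

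**Figure D1:**
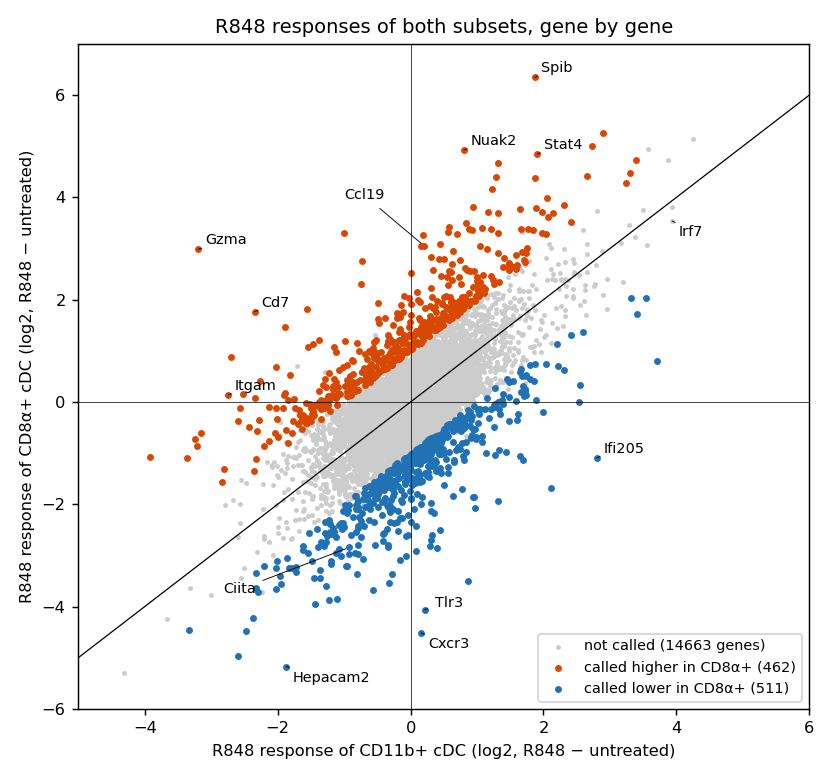
Response to R848 of each of 15636 genes in CD11b+ cDC (x axis) and CD8α+ cDC (y axis), both in log2 units, with the line of equal responses. Orange points are the 462 genes called higher and blue points the 511 called lower in CD8α+ cDC. Spib and Nuak2 lie far above the line, Cxcr3 and Tlr3 far below it, and Irf7 next to it.

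Most cDC1 genes had a lower response in CD8α+ cDC. Of 24 genes on a cDC1 list, 15 could be tested, and 13 of them had a lower response in CD8α+ than in CD11b+ cDC and 0 a higher one. On the deposited scale and after cyclic loess 13 were called lower and 1 higher. The lower count was 12 to 14 when single arrays were left out. The 15 genes' median response was -2.60 in CD8α+ cDC and 0.16 in CD11b+ cDC, beside medians of 0.00 in both subsets over all genes, and 14 of the 15 fell in CD8α+ cDC. In CD11b+ cDC, Cd36 and Ifi205 rose, and Hepacam2, Itgae and Wdfy4 fell. At the start 13 were called higher in CD8α+ cDC, and at the end 8 were. Membership of this list was known to follow the start difference, so its direction is no independent evidence.

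Cxcr3 encodes the receptor for the interferon-induced chemokines CXCL9 and CXCL10. Its levels were 4.42, 4.92, 4.54, 4.69 and 4.496 in untreated CD11b+ cDC, 4.44, 4.98 and 4.89 in CD11b+ cDC after R848, 9.30, 9.04 and 9.08 in untreated CD8α+ cDC and 4.60, 4.998, 4.43, 4.40 and 4.68 in CD8α+ cDC after R848. All 3 untreated CD8α+ arrays stood above the other 13 arrays, and after R848 the subsets overlapped. The response difference was -4.68 ± 0.22 (SE; limma adjusted p = 6.24e-09), the most negative of all genes tested. Tlr3, the receptor for double-stranded RNA, had levels of 4.91, 4.61, 4.82, 4.69 and 4.81 in untreated CD11b+ cDC, 5.03, 4.90 and 5.01 in CD11b+ cDC after R848, 10.40, 10.55 and 10.45 in untreated CD8α+ cDC and 6.42, 6.66, 6.93, 6.41 and 5.601 in CD8α+ cDC after R848. It fell by 4.06 in CD8α+ cDC and still lay above every CD11b+ array, with a response difference of -4.27 ± 0.28 (SE; limma adjusted p = 1.29e-07). Hepacam2, an adhesion protein of the immunoglobulin superfamily, fell in both subsets, by 5.17 in CD8α+ and 1.87 in CD11b+ cDC. Its group means were 5.85 ± 0.12 in untreated CD11b+ cDC, 3.98 ± 0.56 in CD11b+ cDC after R848, 8.75 ± 0.15 in untreated CD8α+ cDC and 3.57 ± 0.08 in CD8α+ cDC after R848 (SD; n = 5, 3, 3 and 5), and the end difference was -0.41 ± 0.17. Cadm1, another adhesion protein of this lineage, had a response of -2.69 ± 0.13 in CD8α+ and 0.31 ± 0.13 in CD11b+ cDC. Plpp1, a lipid phosphate phosphatase, had -3.53 ± 0.13 and -0.33 ± 0.13.

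Xcr1, the receptor for the chemokine XCL1 that T cells and NK cells release, started at 11.17, 11.21 and 11.09 in untreated CD8α+ cDC and stood at 8.46, 8.47, 8.73, 8.68 and 8.46 after R848. CD11b+ arrays gave 3.66 to 4.19 with or without R848, and the response difference was -2.56 ± 0.14 (SE; limma adjusted p = 4.10e-08). Those CD11b+ levels lay below the array median of 4.73, so a fall there could hardly have shown. Irf8, the transcription factor that specifies the cDC1 lineage, had a response difference of -2.48 ± 0.22 (SE; limma adjusted p = 2.47e-06), with group means of 7.57 ± 0.35 in untreated CD11b+ cDC, 8.34 ± 0.16 in CD11b+ cDC after R848, 11.05 ± 0.06 in untreated CD8α+ cDC and 9.34 ± 0.13 in CD8α+ cDC after R848 (SD; n = 5, 3, 3 and 5). Batf3, its partner factor, was the 1 of the 15 list genes not called in CD8α+ cDC (-0.09 ± 0.12). Its difference of 0.90 ± 0.18 missed the fold minimum. Clec9a and Cd8a had no accepted row among the untreated arrays. In the R848 arrays, on the deposited scale, Clec9a averaged 9.01 ± 0.24 (SD, n = 5) in CD8α+ and 3.68 ± 0.48 (n = 3) in CD11b+ cDC. For Cd8a these means were 10.54 ± 0.18 (SD, n = 5) and 6.94 ± 0.39 (n = 3), in the direction of the sort.

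Cd36 and Ifi205 responded in opposite directions. Cd36 is a scavenger receptor for lipids and dying cells. Its levels were 4.30, 4.30, 4.23, 5.25 and 4.97 in untreated CD11b+ cDC, 6.47, 6.70 and 6.97 in CD11b+ cDC after R848, 10.41, 10.61 and 10.42 in untreated CD8α+ cDC and 8.69, 8.51, 8.70, 9.21 and 8.86 in CD8α+ cDC after R848. Every CD11b+ array after R848 exceeded every untreated CD11b+ array, and every CD8α+ array after R848 lay below every untreated one. The response was -1.68 ± 0.22 in CD8α+ and 2.11 ± 0.22 in CD11b+ cDC, and the response difference was -3.79 ± 0.31 (SE; limma adjusted p = 1.15e-06). Ifi205, an interferon-inducible protein of the HIN-200 family, fell in CD8α+ cDC (-1.09 ± 0.16) and rose in CD11b+ cDC (2.80 ± 0.16). Its levels were 5.15, 5.51, 5.80, 5.79 and 5.598 in untreated CD11b+ cDC, 8.51, 8.52 and 8.10 in CD11b+ cDC after R848, 11.23, 11.26 and 10.87 in untreated CD8α+ cDC and 10.13, 10.18, 10.15, 10.03 and 9.66 in CD8α+ cDC after R848. Without overlap between any of the 4 groups, the CD11b+ cells moved toward the CD8α+ level. Tlr12, a receptor for the parasite protein profilin, showed the same pair of directions, with -1.94 ± 0.15 in CD8α+ and 1.32 ± 0.15 in CD11b+ cDC.

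Several genes outside the list led in the same direction. Ctla2b, which encodes a cysteine protease inhibitor of activated lymphocytes, had a response difference of -4.37 ± 0.20 (SE; limma adjusted p = 6.24e-09). Gpr141b, an orphan G protein-coupled receptor, had -3.25 ± 0.26, and its start difference of 7.78 was followed by an end difference of 4.52. Itga8, an integrin chain, had group means of 3.42 ± 0.12 in untreated CD11b+ cDC, 3.14 ± 0.11 in CD11b+ cDC after R848, 6.62 ± 0.43 in untreated CD8α+ cDC and 3.27 ± 0.10 in CD8α+ cDC after R848 (SD; n = 5, 3, 3 and 5), with an end difference of 0.13 ± 0.14. Both CD11b+ means of Itga8 lay below the array median of 4.73, where a fall could hardly have shown. Ipcef1 behaved like Itga8, with a response difference of -3.11 ± 0.19. Cd37, a tetraspanin of leukocytes, and Scimp, an adaptor protein near MHC class II, started higher and ended lower in CD8α+ than in CD11b+ cDC, with end differences of -1.25 and -1.39.

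**Figure D2:**
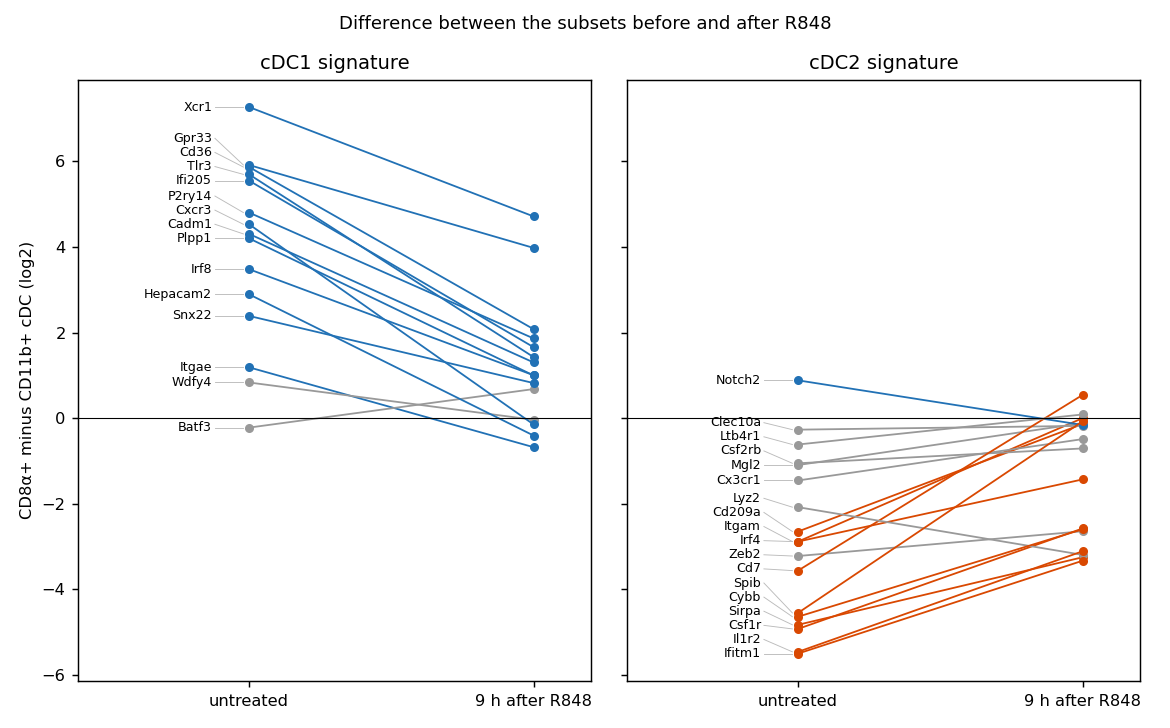
Difference between CD8α+ and CD11b+ cDC (log2 units, y axis) without treatment and 9 h after R848, 1 line for each measured gene of the cDC1 (left) and cDC2 (right) lists. Blue lines are genes with a response called lower in CD8α+ cDC, orange lines higher, grey lines not called. Lines of 13 cDC1 genes run down toward or slightly past 0, and lines of 10 cDC2 genes run up in the same way.

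The cDC2 genes that were called had, with 1 exception, the higher response in CD8α+ cDC. Of 23 listed genes, 18 could be tested, 10 were called higher in the response of CD8α+ cDC, and 1, Notch2, was called lower. The median response was 0.49 in CD8α+ and -0.51 in CD11b+ cDC. Leaving out single arrays gave 9 to 11 genes called higher. The Notch2 call (-1.04) was lost without untreated CD11b+ replicate 3 (-0.96), without R848 CD8α+ replicate 1 (-0.99) or replicate 4 (-0.98), on the deposited scale (-0.76) and after cyclic loess (-0.94). At the start 14 genes were called lower in CD8α+ cDC and at the end 8 were, and again the list follows the start difference. The listed genes Clec12a, Tnfrsf11a, Clec4a4, Clec4a2 and Klf4 had no accepted row and went both ways in the R848 arrays. On the deposited scale their end differences were 5.195 for Clec12a and 0.667 for Tnfrsf11a. For Clec4a4, Clec4a2 and Klf4 they were -2.05, -1.152 and -0.576.

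Spib, a transcription factor of the ETS family with roles in B cells and plasmacytoid dendritic cells, had levels of 8.80, 8.60, 8.41, 8.65 and 9.14 in untreated CD11b+ cDC, 10.97, 10.38 and 10.41 in CD11b+ cDC after R848, 4.06, 4.06 and 4.37 in untreated CD8α+ cDC and 10.67, 10.79, 10.83, 10.12 and 10.15 in CD8α+ cDC after R848. It rose in both subsets, and the untreated CD8α+ arrays stood alone at the bottom while both R848 groups overlapped. The response was 6.35 ± 0.20 in CD8α+ and 1.87 ± 0.20 in CD11b+ cDC, a response difference of 4.48 ± 0.28 (SE; limma adjusted p = 8.70e-08). Itgam encodes CD11b, the sort marker. Its levels were 7.17, 6.76, 7.42, 6.57 and 6.64 in untreated CD11b+ cDC, 3.76, 4.37 and 4.38 in CD11b+ cDC after R848, 3.92, 4.17 and 3.99 in untreated CD8α+ cDC and 4.04, 4.18, 4.30, 4.02 and 4.30 in CD8α+ cDC after R848. After R848 the RNA level in the cells sorted as CD11b+ overlapped that in the cells sorted as CD11b-. Itgam fell in CD11b+ cDC (-2.74 ± 0.18), and the response difference was 2.88 ± 0.26 (SE; limma adjusted p = 3.34e-06). All CD8α+ arrays lay below the array median of 4.73 for Itgam, where a fall could hardly have shown. Cd7, an immunoglobulin-family surface protein, rose in CD8α+ cDC (1.76 ± 0.39) and fell in CD11b+ cDC (-2.34 ± 0.39), and after R848 the groups overlapped.

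Csf1r, Il1r2, Cd209a and Ccr1 fell in CD11b+ cDC with no call in CD8α+ cDC. Il1r2, the decoy receptor of interleukin-1, fell in CD11b+ cDC (-3.21 ± 0.30), and Cd209a, a C-type lectin, did so too (-3.24 ± 0.31). Csf1r, the receptor for CSF1, had -1.81 ± 0.36 and Ccr1, an inflammatory chemokine receptor, -1.89 ± 0.22. Their levels in CD8α+ cDC after R848 were 3.48 to 4.85 for Il1r2, 3.76 to 4.06 for Cd209a, 4.44 to 6.35 for Csf1r and 3.30 to 4.41 for Ccr1. Those of Cd209a and Ccr1, and the lowest of Il1r2 and Csf1r, lay below the array median of 4.73. From untreated CD8α+ levels in that range, which are not given here, a fall could hardly show. Cybb, the catalytic subunit of the phagocyte NADPH oxidase, instead rose in CD8α+ cDC (2.02 ± 0.34), with levels of 8.49, 8.33, 8.08, 7.24 and 6.64 after R848 against 5.76, 5.33 and 6.10 before, and did not change by a call in CD11b+ cDC (-0.02 ± 0.34). Replicates 4 and 5 of the R848 CD8α+ group were also the lowest for Lyz2, the lysozyme of myeloid cells, at 7.56 and 5.15 against 10.24 to 10.69 in the other 3. Sirpa, the other sort marker, had a response difference of 1.58 ± 0.48 (adjusted p = 0.0297), which lost its call without untreated CD8α+ replicate 1 (1.09), R848 CD11b+ replicate 1 (1.46) or replicate 3 (1.62). Its levels after R848 were 9.49 to 9.91 in CD11b+ and 5.599 to 7.09 in CD8α+ cDC.

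**Figure D3:**
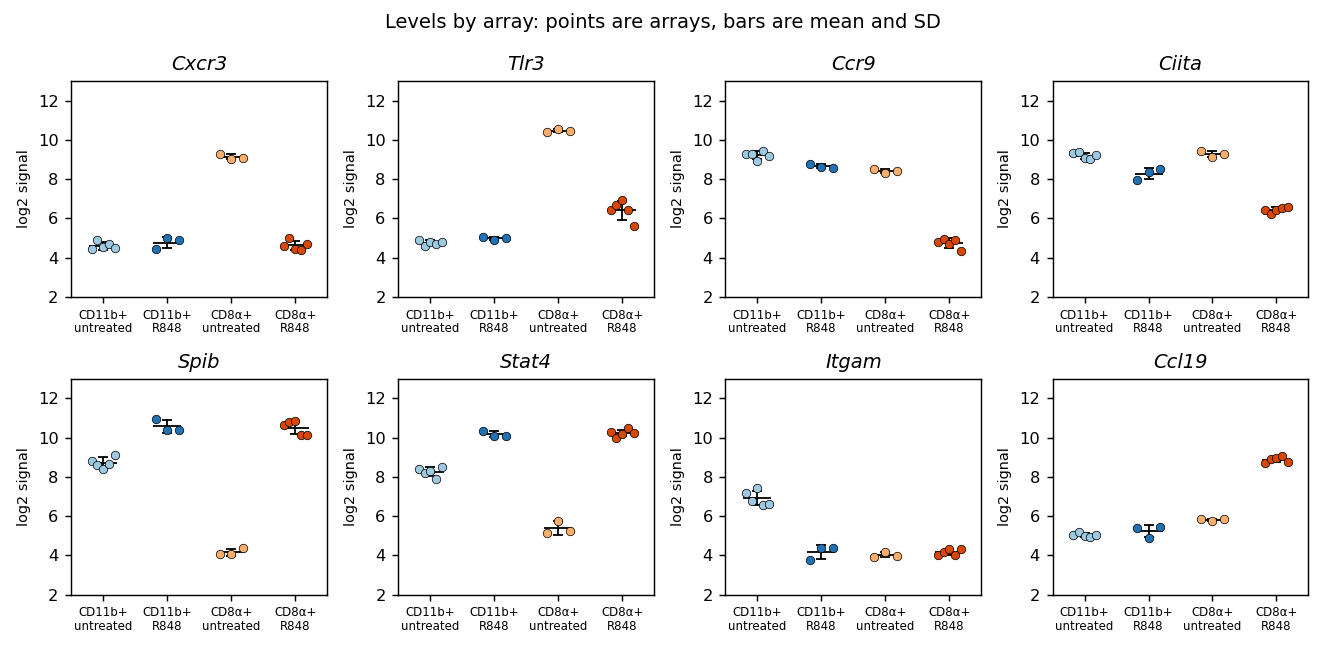
Levels (log2 signal, y axis) of 8 genes in each array of the 4 groups, with mean and SD. Untreated CD8α+ cDC stand apart for Cxcr3, Tlr3, Spib and Stat4, untreated CD11b+ cDC for Itgam, and R848-treated CD8α+ cDC for Ccr9, Ciita and Ccl19.

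Some genes had like start levels, so that their response difference lay mostly in the end levels. Of the 973 called genes, 121 started within 0.5 log2 units of each other and ended over 1 apart, 63 of them higher and 58 lower in CD8α+ cDC. The end difference of these genes lies within 1 array set. Dgkk, a diacylglycerol kinase, had levels of 3.59, 3.78, 3.65, 3.94 and 3.80 in untreated CD11b+ cDC, 4.28, 3.58 and 3.94 in CD11b+ cDC after R848, 4.03, 4.12 and 3.97 in untreated CD8α+ cDC and 7.30, 7.28, 7.43, 7.18 and 7.37 in CD8α+ cDC after R848. Only the R848 CD8α+ arrays left the range of 3.58 to 4.28, and the response difference was 3.09 ± 0.18 (SE; limma adjusted p = 4.10e-08). Apod, apolipoprotein D, rose in both subsets, by 5.01 ± 0.13 in CD8α+ and 2.73 ± 0.13 in CD11b+ cDC, from untreated levels of 3.39 to 3.73 in all 8 untreated arrays. After R848 its levels were 6.57, 6.13 and 5.98 in CD11b+ and 8.85, 8.48, 8.47, 8.87 and 8.56 in CD8α+ cDC, without overlap. Sct, the peptide hormone secretin, had a response difference of 2.17 ± 0.35, Efcab3, a predicted calcium-binding protein, 2.89 ± 0.13, and Clic5, a chloride intracellular channel protein, 2.05 ± 0.16. Cptp, a ceramide-1-phosphate transfer protein, had 2.03 ± 0.28, Dnajc12, a co-chaperone, 1.99 ± 0.29, and the unnamed transcript 9330175E14Rik 2.60 ± 0.30.

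In the other direction, Ceacam15 rose in CD11b+ cDC to 7.33, 5.23 and 6.59 from 3.75 to 3.98, while CD8α+ arrays gave 3.98 to 4.71 with or without R848. The response difference of this member of the carcinoembryonic antigen family was -2.22 ± 0.43 (SE; limma adjusted p = 0.002). Itgax, which encodes the sorting and enrichment marker CD11c, started at 10.23 to 10.59 in all 8 untreated arrays. After R848 its levels were 8.84, 9.67 and 9.55 in CD11b+ and 7.40, 7.52, 7.47, 7.65 and 7.60 in CD8α+ cDC, so it fell in both subsets and further in CD8α+ cDC, with a response difference of -1.97 ± 0.20 (SE; limma adjusted p = 1.09e-05). Myc, a transcription factor of growth, fell in CD8α+ cDC (-2.81 ± 0.31) and had no call in CD11b+ cDC (-0.79 ± 0.31). Sla, an adaptor that dampens antigen receptor signals, had a response difference of -1.84 ± 0.22, Hexa, a lysosomal hexosaminidase subunit, -1.97 ± 0.33, and the uncharacterised 6720489N17Rik -1.95 ± 0.51.

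Genes of MHC class II presentation that were called had the lower response in CD8α+ cDC. Of 13 listed genes, 9 could be tested, 4 had a lower response in CD8α+ cDC and 0 a higher one, also with any single array left out. The median response difference was -0.89, and -0.40 on the deposited scale, and the 4 genes were Ciita, H2-Oa, H2-Ob and H2-DMa. Ciita, the master transactivator of MHC class II genes, had levels of 9.31, 9.36, 9.07, 9.02 and 9.22 in untreated CD11b+ cDC, 7.95, 8.35 and 8.52 in CD11b+ cDC after R848, 9.42, 9.11 and 9.30 in untreated CD8α+ cDC and 6.44, 6.24, 6.41, 6.52 and 6.56 in CD8α+ cDC after R848. Untreated groups overlapped, and the R848 CD8α+ arrays lay below all others, with responses of -2.84 ± 0.12 in CD8α+ and -0.92 ± 0.12 in CD11b+ cDC. The response difference was -1.92 ± 0.17 (SE; limma adjusted p = 3.49e-06). H2-Oa, a chain of the modulator of peptide loading H2-O, fell by 2.59 in CD8α+ and 1.18 in CD11b+ cDC. The H2-DMa call (-1.27) was lost on the deposited scale (-0.83). Those of H2-Ob and H2-DMa were lost without replicates 4 and 5 of both groups of 5 (-0.93 and -0.999). The genes of the classical class II chains had smaller differences, with -0.89 ± 0.13 for H2-Ab1, -0.47 ± 0.11 for H2-Eb1 and -0.34 ± 0.09 for H2-Aa. The 13 measured genes of MHC class I presentation had response differences of -0.59 to 0.88, all under the fold minimum. Their median response difference of -0.20 turned to 0.21 on the deposited scale, and the median response was 0.40 in CD8α+ and 0.46 in CD11b+ cDC. On that scale, 2 of these were called higher. These values describe RNA, not protein at the surface.

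Maturation genes with a called response difference had, with 1 exception, the higher response in CD8α+ cDC. Of 28 listed genes of maturation and co-stimulation, 20 could be tested, 8 had a higher response in CD8α+ cDC and 1 a lower one, with 8 to 11 higher when single arrays were left out. The median response was 1.60 in CD8α+ and 0.46 in CD11b+ cDC, and 14 of the 20 rose in CD8α+ against 5 in CD11b+ cDC. At the start 7 of them were called lower in CD8α+ cDC. At the end 1 was called higher, Tnfsf9, and 1 lower, Cd69.

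Stat4, a transcription factor downstream of interleukin-12 and type I interferon, had levels of 8.42, 8.21, 8.32, 7.89 and 8.48 in untreated CD11b+ cDC, 10.34, 10.10 and 10.08 in CD11b+ cDC after R848, 5.12, 5.77 and 5.26 in untreated CD8α+ cDC and 10.26, 9.996, 10.18, 10.48 and 10.23 in CD8α+ cDC after R848. Both R848 groups overlapped, and the untreated CD8α+ arrays lay lowest. The response difference was 2.94 ± 0.22 (SE; limma adjusted p = 4.42e-07). Tnfsf9, the ligand of the co-stimulatory receptor 4-1BB, rose in CD8α+ cDC (2.30 ± 0.31) without a call in CD11b+ cDC (-0.75 ± 0.31). Its levels after R848 were 7.77, 7.28, 7.55, 7.45 and 7.44 in CD8α+ and 6.72, 6.01 and 5.50 in CD11b+ cDC. Both ligands of PD-1 followed the first course, with response differences of 1.90 ± 0.20 for Cd274 and 2.37 ± 0.19 for Pdcd1lg2. Group means of Cd274 were 9.34 ± 0.24 in untreated CD11b+ cDC, 9.89 ± 0.10 in CD11b+ cDC after R848, 7.79 ± 0.24 in untreated CD8α+ cDC and 10.25 ± 0.20 in CD8α+ cDC after R848 (SD; n = 5, 3, 3 and 5). Socs2, a feedback inhibitor of cytokine signalling, rose in both subsets, by 5.26 in CD8α+ and 2.90 in CD11b+ cDC. Cd86, a ligand of CD28, was the 1 gene of the list with a lower response in CD8α+ cDC, at -1.79 ± 0.23 (SE; limma adjusted p = 7.58e-05). Its untreated level was higher in CD8α+ (10.80 to 10.86) than in CD11b+ cDC (9.01 to 9.32), and after R848 the subsets overlapped. Cd40 and Cd80 were also called, at 1.11 ± 0.20 and 1.19 ± 0.27.

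NF-κB targets and feedback regulators that were called had the higher response in CD8α+ cDC. Of 22 listed genes, 13 could be tested, 6 had a higher response in CD8α+ cDC and 0 a lower one, with 5 or 6 when single arrays were left out. The median response was 0.97 in CD8α+ and 0.31 in CD11b+ cDC. Gadd45b, a stress sensor, rose in CD8α+ cDC (3.497 ± 0.28) against 0.84 ± 0.28 in CD11b+ cDC. Ptgs2, the inducible cyclooxygenase, rose in CD8α+ cDC from 4.98 to 5.59 before R848 to 6.98 to 8.81 after it, but stayed below the CD11b+ level of 9.18 to 11.03. Its response difference was 2.52 ± 0.57. Nfkbie, an inhibitor of NF-κB, had 1.498 ± 0.19, and Cflar, which blocks caspase-8, had 1.37 ± 0.17. Relb, the subunit of the non-canonical pathway on the maturation list, had a start difference of -1.58 ± 0.11 and an end difference of 0.02 ± 0.11.

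**Figure D4:**
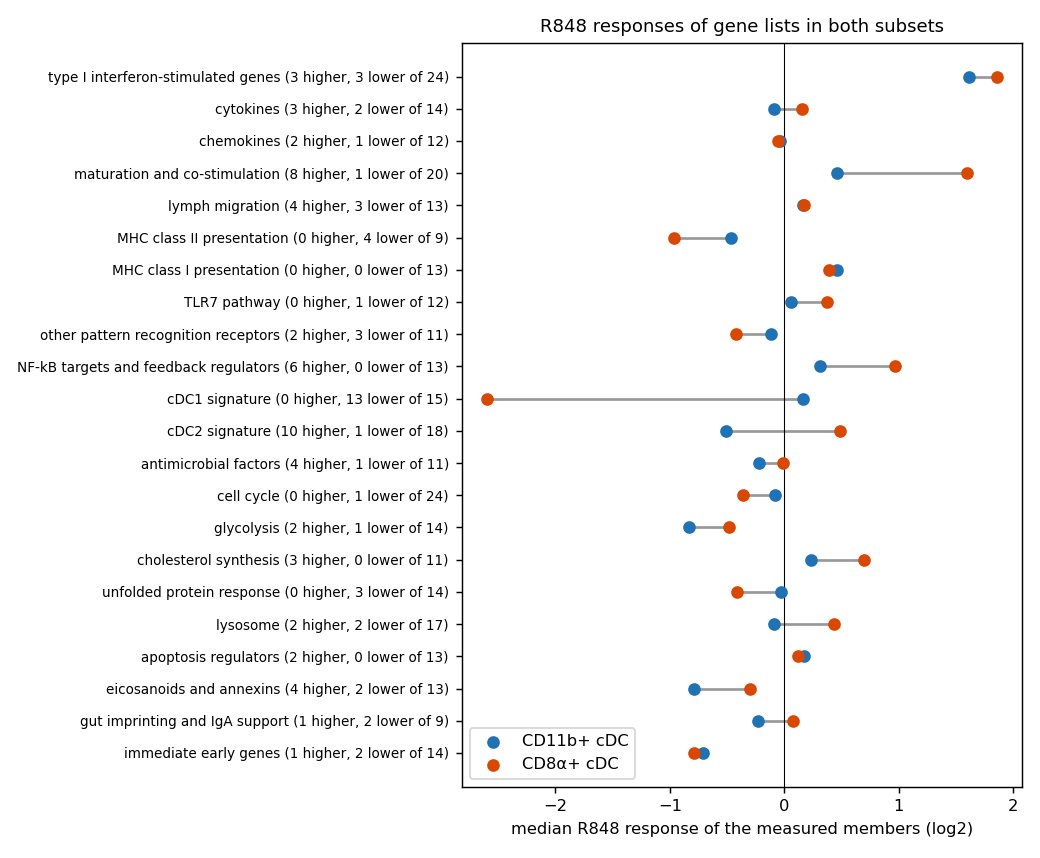
Median response to R848 (log2 units, x axis) of the measured members of the gene lists in CD11b+ cDC (blue) and CD8α+ cDC (orange), with the members called higher or lower in the response of CD8α+ cDC. The points lie farthest apart for the cDC1 list and close together for chemokines and lymph migration.

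Most measured interferon-stimulated genes rose in each subset. Of 42 listed genes, 24 could be tested, 16 rose in CD8α+ and 19 in CD11b+ cDC, with median responses of 1.86 and 1.62. The median response difference was 0.18, with 3 genes called higher (Oas3, Oas1a and Ddx58) and 3 lower (Ifi205, Slfn5 and Trim30a), so 6 of 24 were called beside 6.22% of all genes. The 3 genes called higher were close to the fold minimum and numbered 1 to 4 when single arrays were left out. They numbered 1 without untreated CD11b+ replicate 1, untreated CD8α+ replicate 1 or R848 CD11b+ replicate 1. Irf7, an interferon regulatory factor that acts downstream of TLR7, rose by 3.54 ± 0.13 in CD8α+ and 3.94 ± 0.13 in CD11b+ cDC. Its levels were 5.05, 4.91, 4.68, 4.997 and 5.18 in untreated CD11b+ cDC, 9.05, 8.90 and 8.75 in CD11b+ cDC after R848, 6.58, 6.37 and 6.86 in untreated CD8α+ cDC and 10.17, 10.33, 10.31, 10.01 and 9.90 in CD8α+ cDC after R848. CD8α+ cDC were higher before and after R848, and the response difference was -0.40 ± 0.19 (SE; limma adjusted p = 0.156). Mx1, an antiviral GTPase, rose by 3.75 and 3.49.

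The 3 genes with a lower response shared a high start in CD8α+ cDC. Slfn5, of the Schlafen family, had levels of 5.79, 5.35, 5.97, 6.33 and 6.25 in untreated CD11b+ cDC, 7.66, 7.87 and 7.93 in CD11b+ cDC after R848, 8.01, 8.27 and 8.20 in untreated CD8α+ cDC and 8.21, 8.15, 8.16, 8.31 and 8.17 in CD8α+ cDC after R848. Trim30a, a ubiquitin ligase of the TRIM family, had group means of 8.62 ± 0.19 in untreated CD11b+ cDC, 10.28 ± 0.15 in CD11b+ cDC after R848, 10.26 ± 0.10 in untreated CD8α+ cDC and 10.45 ± 0.05 in CD8α+ cDC after R848 (SD; n = 5, 3, 3 and 5). After R848 the CD11b+ arrays overlapped the untreated CD8α+ arrays for Trim30a and lay just below them for Slfn5, and the CD8α+ response was 0.04 ± 0.17 for Slfn5 and 0.19 ± 0.10 for Trim30a. Not all genes of this kind could be tested. All 15 listed interferon-inducible GTPases and 18 of the 42 interferon-stimulated genes had no accepted row. For some of them no row was assigned to that gene alone, and for the others the row was not matched. The counts therefore cover the tested genes alone. In the R848 arrays, on the deposited scale, Oasl1 was 1.89 higher and Gbp4 1.43 higher in CD8α+ cDC, while Gbp7 was 1.88 lower.

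The letters TTTC, any 2 bases and again TTTC, the core of the interferon response element bound by IRF factors, were searched on both strands from 250 bases before to 50 after the start of each gene in the RefSeq promoters of GRCm38.p6. They occurred in 3.9% of the promoters of 12286 tested genes, in 9 of 17 interferon-stimulated genes with a promoter (52.9%), in 6.47% of the genes called higher and in 5.6% of those called lower. With stricter row acceptance the shares of higher and lower genes were 11.9% (14 of 118 promoters) and 3.11% (5 of 161). With limma's treat the share was 11.6% of higher genes (5 of 43) and 7.14% of lower genes (4 of 56). At a minimum of 2 log2 units it was 12.3% (7 of 57) and 8.33% (5 of 60), so few promoters make up the shares under the stricter rules. A κB motif, GGGA, any 2 bases and TTCC, was found in 1.56% of all, 2.43% of higher and 1.22% of lower genes. Among higher genes it was found in 6.98% with treat (3 of 43) and 5.26% at 2 log2 units (3 of 57). For the AP-1 motif, TGANTCA, the shares of all, higher and lower genes were 8.08%, 8.89% and 8.03%. At 2 log2 units they were 12.3% of higher (7 of 57) and 11.7% of lower genes (7 of 60), and with treat 12.5% of lower genes (7 of 56). The stretches below are shown because their genes span the range of the response difference, from genes that rose further in CD8α+ cDC (Stat4, Ccl19, Oas3) to genes that rose in CD11b+ cDC alone (Slfn5, Trim30a) or fell in CD8α+ cDC (Ifi205). Capitals mark the match, read 5′ to 3′ on the strand of the gene, and a match is a description of letters, not of binding.
Stat4, chr1:52008118-52008177, plus strand: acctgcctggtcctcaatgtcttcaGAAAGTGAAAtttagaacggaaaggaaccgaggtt
Ccl19, chr4:42756539-42756598, minus strand: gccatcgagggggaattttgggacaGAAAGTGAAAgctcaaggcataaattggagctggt
Oas3, chr5:120777700-120777759, minus strand: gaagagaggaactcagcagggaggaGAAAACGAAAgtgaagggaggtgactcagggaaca
Slfn5, chr11:82951922-82951981, plus strand: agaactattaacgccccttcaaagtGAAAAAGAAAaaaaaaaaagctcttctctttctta
Trim30a, chr7:104465195-104465254, minus strand: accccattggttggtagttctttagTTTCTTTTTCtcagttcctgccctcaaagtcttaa
Ifi205, chr1:174031855-174031914, minus strand: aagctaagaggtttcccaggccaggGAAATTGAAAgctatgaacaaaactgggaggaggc
The match ends 88 bases before the start of Stat4, 199 before that of Ccl19, 66 before that of Oas3, 146 before that of Slfn5, 27 before that of Trim30a and 125 before that of Ifi205. Genes on both sides of the response difference carry these letters.

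Called cytokine and chemokine genes went both ways. Of 14 cytokine genes 3 were called higher and 2 lower, and of 12 chemokine genes 2 higher and 1 lower, beside 2.95% higher and 3.27% lower over all genes. Ccl19, a ligand of CCR7, had levels of 5.05, 5.18, 5.003, 4.94 and 5.05 in untreated CD11b+ cDC, 5.40, 4.88 and 5.44 in CD11b+ cDC after R848, 5.83, 5.76 and 5.87 in untreated CD8α+ cDC and 8.73, 8.89, 8.95, 9.07 and 8.75 in CD8α+ cDC after R848. R848 CD8α+ arrays alone stood above 5.87, and the response difference was 2.86 ± 0.16 (SE; limma adjusted p = 4.10e-08). Ccl17, a ligand of CCR4, fell in CD8α+ cDC (-3.08 ± 0.20) without a call in CD11b+ cDC (-0.16 ± 0.20), from above to below the CD11b+ level. Ccl5 rose in both subsets and reached 12.22 to 12.50 in all 8 R848 arrays. Its response difference of 1.55 (adjusted p = 0.00136) lost the call when all 25 arrays were fitted (adjusted p = 0.0517). Il1b, the inflammatory cytokine, was already lower in untreated CD8α+ cDC and fell there (-1.92 ± 0.20), with levels of 11.34, 11.31, 11.38, 10.82 and 11.07 in untreated CD11b+ cDC, 11.01, 11.01 and 11.12 in CD11b+ cDC after R848, 9.15, 9.19 and 9.19 in untreated CD8α+ cDC and 7.62, 7.10, 7.81, 7.11 and 6.65 in CD8α+ cDC after R848. CD11b+ groups overlapped, so the response difference of -1.78 ± 0.28 widened the gap. Il1rn, which encodes the antagonist of the interleukin-1 receptor, rose in CD8α+ cDC (1.88 ± 0.15) and stayed below the CD11b+ level. Ltb, lymphotoxin β, fell in CD11b+ cDC (-2.53 ± 0.43), where its levels then overlapped those of CD8α+ cDC. Tnfsf13b, the cytokine BAFF (-1.01), lost its call in 8 of the settings that left out 1 array and on the deposited scale. Lower chemokine genes numbered 2 without untreated CD8α+ replicate 2 or R848 CD11b+ replicate 1.

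Genes of migration and gut homing also split. Ccr9, the gut-homing receptor for CCL25, had levels of 9.27, 9.30, 8.95, 9.44 and 9.18 in untreated CD11b+ cDC, 8.78, 8.63 and 8.58 in CD11b+ cDC after R848, 8.52, 8.33 and 8.43 in untreated CD8α+ cDC and 4.81, 4.97, 4.69, 4.91 and 4.35 in CD8α+ cDC after R848. Start levels were 0.80 lower in CD8α+ cDC, and after R848 the CD8α+ arrays stood far below all others, with a response difference of -3.11 ± 0.18 (SE; limma adjusted p = 5.16e-08). Ccr7, the receptor that guides dendritic cells to T cell zones, rose in both subsets, by 2.67 ± 0.23 and 1.51 ± 0.23. Its response difference of 1.16 lost the limma call without untreated CD8α+ replicate 1 (0.84; adjusted p = 0.0538) and with all 25 arrays fitted (adjusted p = 0.0597). S1pr1, the receptor for sphingosine-1-phosphate, rose by 3.85 in CD8α+ and 2.31 in CD11b+ cDC, and after R848 the subsets overlapped. Itgae, the integrin chain CD103, fell in both, by 4.23 and 2.37. Of 13 measured genes on this list 4 were called higher and 3 lower, and 2 higher without untreated CD8α+ replicate 1. Over all genes, 2.95% were called higher and 3.27% lower. Aldh1a2, the enzyme that makes retinoic acid, rose by 2.38 ± 0.19 in CD8α+ and 2.26 ± 0.19 in CD11b+ cDC, a difference of 0.12 ± 0.27. Plet1, a surface protein of intestinal dendritic cells, fell from 9.04 to 9.81 to 4.63 to 6.49 in CD8α+ cDC and from 11.49 to 11.94 to 10.30 to 10.86 in CD11b+ cDC. Of 9 genes of gut imprinting and IgA support, 1 was called higher, the transglutaminase gene Tgm2 (2.42 ± 0.28), and 2 lower, Plet1 and Tnfsf13b.

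The TLR7 pathway had 1 called gene among 12 measured, a share near the 6.22% of all genes. Tlr7 itself had no accepted row. In the R848 arrays, on the deposited scale, it averaged 6.26 ± 0.70 (SD, n = 3) in CD11b+ and 4.98 ± 0.72 (n = 5) in CD8α+ cDC. The called gene was Hsp90b1, a chaperone of Toll-like receptors (-1.23), and that call was lost on the deposited scale. On that scale 2 others were called higher, and 1 was in 8 of the settings that left out 1 array. Of 11 other pattern recognition receptors, 2 were called higher and 3 lower (Tlr3, Tlr12 and Tlr13), of which Tlr13 (-1.25) lost its call on the deposited scale. Clec7a, the β-glucan receptor Dectin-1, rose in CD8α+ cDC (1.93 ± 0.18) to levels that overlapped those of CD11b+ cDC, and Tlr1, a receptor for bacterial lipopeptides, rose by 1.76 there and stayed below the CD11b+ level.

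Among metabolic, stress and lysosomal genes, calls went both ways. Over all genes, 2.95% were called higher and 3.27% lower, and 5.58% fell in CD8α+ and 3.45% in CD11b+ cDC. Of 14 glycolysis genes 2 were called higher and 1 lower, and 6 fell in CD11b+ against 5 in CD8α+ cDC. Pfkfb3, which makes the activator of phosphofructokinase, rose in both and further in CD8α+ cDC, with a response difference of 1.74 ± 0.22. Slc16a3, a lactate exporter, fell in CD11b+ cDC alone (-1.29), with a difference of 1.75 ± 0.24, and Pfkp, the platelet-type phosphofructokinase, had -1.503 ± 0.17. Of 11 cholesterol synthesis genes 3 were called higher, among them Idi1 (1.63 ± 0.25) and Lss (1.29 ± 0.21). Of 17 lysosomal genes 2 were called higher and 2 lower, with 1 higher without untreated CD11b+ replicate 5 or untreated CD8α+ replicate 1 and 4 higher without untreated CD8α+ replicate 3 and on the deposited scale. Lgmn, the asparagine endopeptidase legumain, rose by 4.68 in CD8α+ and 1.31 in CD11b+ cDC, a difference of 3.37 ± 0.18 (SE; limma adjusted p = 3.59e-08). Cd68 fell in both and further in CD8α+ cDC, with a response difference of -1.80 ± 0.22. Of 14 unfolded protein response genes 3 were called lower, 5 without R848 CD11b+ replicate 1, 2 without R848 CD11b+ replicate 2 or R848 CD8α+ replicate 4 or 5, and 1 on the deposited scale and after cyclic loess. Hyou1, a chaperone of the endoplasmic reticulum, had -1.68 ± 0.30.

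Of 13 eicosanoid and annexin genes 4 were called higher. For this list and the next ones, the shares over all genes were 2.95% higher and 3.27% lower. Hpgd, which degrades prostaglandins, fell in both subsets and further in CD11b+ cDC (-3.92 ± 0.23), and Anxa2 and Anxa3 rose in CD8α+ cDC by 3.39 and 3.40. The list's lower calls, Alox5ap (-1.11) and Anxa6 (-1.05), were each lost under several settings, the deposited scale among them, and only 1 lower call was left in 6 of the settings that left out 1 array. Of 24 cell cycle genes 1 was called lower, Mcm6 (-1.04), a share near that of all genes. The Mcm6 call was lost on the deposited scale, while leaving out single arrays gave 0 to 2. Of 14 immediate early genes, 6 fell in each subset, beside 5.58% of all genes in CD8α+ and 3.45% in CD11b+ cDC. The response difference was called lower for Egr1 (-1.47 ± 0.26) and Fos (-1.31 ± 0.34), the second not on the deposited scale, and higher for Junb (1.199). Of 11 antimicrobial genes 1 was called lower, Mpeg1, a pore-forming protein of phagocytes (-1.81 ± 0.15), and 4 higher, among them S100a8, a calprotectin subunit, which rose in CD8α+ cDC to 6.26, 5.08, 7.53, 6.02 and 5.64 from 3.53 to 3.62. Of 13 apoptosis regulators 2 were called higher, Casp4 (1.75 ± 0.30) and Casp1 (1.11), and 1 without untreated CD8α+ replicate 3, where Casp1 stood at 0.996.

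Other genes led the higher side. Nuak2, a kinase related to AMPK, rose in CD8α+ cDC (4.93 ± 0.18) from 3.16, 3.25 and 3.19 to 8.00, 8.07, 7.59, 8.42 and 8.58, with a response difference of 4.12 ± 0.26 (SE; limma adjusted p = 7.53e-08). Mt2, a metallothionein, had 4.30 ± 0.64, with untreated CD11b+ levels of 6.10, 6.00, 7.04, 8.31 and 7.58, a spread of over 2 log2 units. Slc2a6, a hexose transporter, rose in CD8α+ cDC (2.75 ± 0.15) and was not called in CD11b+ cDC (-0.74 ± 0.15). Mreg, melanoregulin, and Fabp5, a fatty acid-binding protein, rose in both subsets and had response differences of 3.11 ± 0.24 and 2.94 ± 0.27.

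The largest response difference of all genes tested was that of a gene of cytotoxic lymphocytes, and the T cell and NK cell genes Gzma, Nkg7 and Cd3g rose in CD8α+ and fell in CD11b+ cDC. Gzma, the protease granzyme A of cytotoxic lymphocytes, had levels of 6.29, 7.69, 7.53, 8.44 and 8.02 in untreated CD11b+ cDC, 3.70, 4.07 and 5.42 in CD11b+ cDC after R848, 5.72, 4.67 and 4.05 in untreated CD8α+ cDC and 7.58, 8.41, 8.45, 6.95 and 7.61 in CD8α+ cDC after R848. It rose in CD8α+ cDC (2.99 ± 0.51) and fell in CD11b+ cDC (-3.19 ± 0.51), a response difference of 6.18 ± 0.72 (SE; limma adjusted p = 4.20e-05). Untreated CD11b+ and R848 CD8α+ arrays overlapped each other and stood above all other arrays. Nkg7, a granule protein, had 3.36 ± 0.60, Cd3g, a chain of the T cell receptor complex, 3.37 ± 0.78, Cd3e, another chain, 1.76 ± 0.25, and Thy1, a surface protein of T cells, 3.58 ± 0.57. Each of these was lower in R848 CD11b+ than in untreated CD11b+ cDC by group mean. Cd3g ranged from 4.51 to 7.42 among the R848 CD8α+ arrays and from 4.50 to 6.77 among the untreated CD11b+ arrays.

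Over the whole T cell list, 4 of 10 markers could be tested, with 3 called higher and 1 lower. The lower gene, Cd2 (-1.68), lost its call without untreated CD8α+ replicate 1 (-1.70) or 2 (-1.56) or R848 CD11b+ replicate 2 (-1.25). The summed level of the 4 markers, the log2 of the sum of their linear signals, ran from 8.03 to 9.16 in untreated CD11b+, 8.27 to 9.32 in R848 CD11b+, 6.44 to 6.79 in untreated CD8α+ and 7.41 to 8.64 in R848 CD8α+ cDC. Of 11 NK cell and ILC markers, 8 could be tested, with 2 called higher and 1, Klrk1, lower (-1.18), a call lost on the deposited scale, and Klrb1c and Eomes lay at or under the array median of 4.73 in every array. Their summed level ran from 10.68 to 10.89 in untreated CD11b+, 10.89 to 11.11 in R848 CD11b+, 8.17 to 8.57 in untreated CD8α+ and 9.50 to 10.06 in R848 CD8α+ cDC. Of 6 measured B cell markers, 6 rose in CD11b+ and 4 in CD8α+ cDC, with summed levels of 8.17 to 9.27 and 10.72 to 11.45 in CD11b+ and 7.25 to 8.07 and 9.11 to 10.36 in CD8α+ cDC before and after R848. Their median response difference was -0.80, with Cd79a called higher and Pax5 lower, and 3 of the 6 were called lower in CD8α+ cDC after R848. The B cell markers Cd79b, Cd22 and Cr2 had no accepted row. In the R848 arrays, on the deposited scale, they averaged 10.21, 7.32 and 4.14 in CD11b+ and 8.74, 5.89 and 3.61 in CD8α+ cDC. Pax5, the transcription factor of B cell identity, rose by 1.13 in CD8α+ and 2.20 in CD11b+ cDC, and its response difference of -1.08 lost its call on the deposited scale (-0.85), with the replicate block (-0.97) and without untreated CD11b+ replicate 3, untreated CD8α+ replicate 1 or 2, R848 CD11b+ replicate 2 or 3 or R848 CD8α+ replicate 4 (-1.065 to -0.945). Cd79a, a chain of the B cell receptor, rose by 3.71 in CD8α+ and 1.98 in CD11b+ cDC. Its response difference of 1.73 lost its call without untreated CD8α+ replicate 1 (adjusted p = 0.0589) or 3 (adjusted p = 0.0563). The part of these cells' RNA in the response difference was not tested, and in sorted bulk samples more cells of a type and more RNA per cell cannot be told apart.

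**Figure D5:**
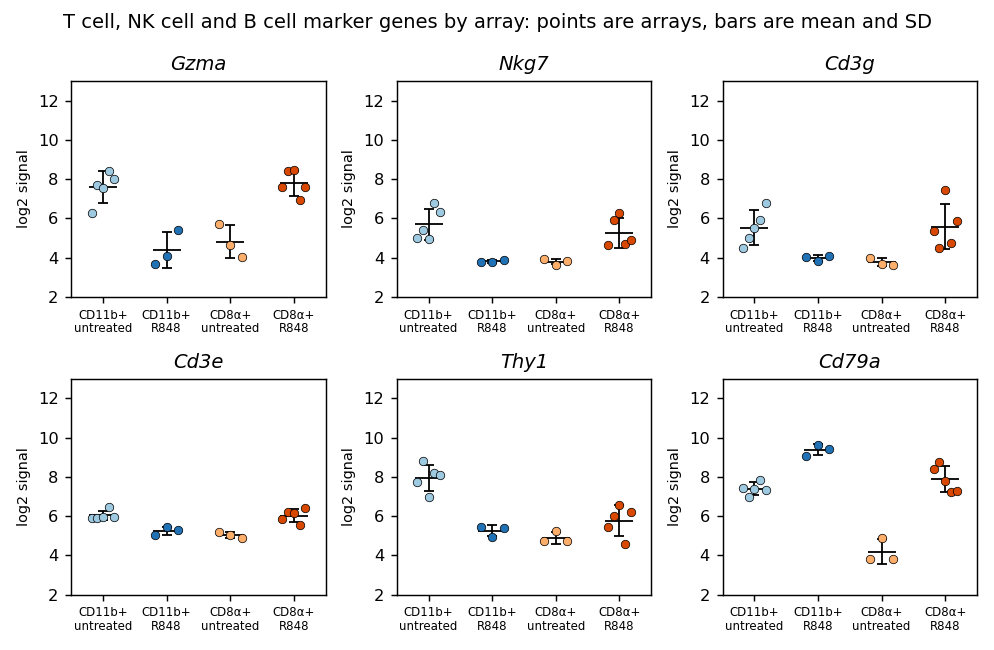
Levels (log2 signal, y axis) of 6 marker genes of T cells, NK cells and B cells in each array of the 4 groups, with mean and SD. Gzma, Nkg7, Cd3g, Cd3e and Thy1 have their highest means in untreated CD11b+ and R848 CD8α+ cDC, and Cd79a is lowest in untreated CD8α+ cDC. Cd2, Klrk1 and Pax5, the markers of these lists called lower in the response of CD8α+ cDC, are not shown.

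Markers of further cell types gave at most 2 calls a list after quantile normalization. Of 9 macrophage markers Csf1r was called higher and Cd68 lower, and 3 were called higher on the deposited scale and after cyclic loess. Of 6 monocyte markers S100a4 was called higher, and of 8 neutrophil markers S100a8 was (2 on the deposited scale), while Ly6g, Elane, Camp, Ngp and Retnlg lay at or under the array median in every array. Of 12 epithelial markers 2 were called higher, Cdh1 (1.91 ± 0.37) and Gp2 (1.41 ± 0.30), both of which fell in CD11b+ cDC alone. The summed epithelial level was 9.09 to 11.40 in untreated CD11b+, 7.77 to 9.64 in untreated CD8α+ and 7.66 to 8.33 in the R848 arrays. Of 6 plasmacytoid dendritic cell markers, Spib was called higher and Ccr9 lower. Response differences, none of them called, ran from -1.18 to 0.19 for 7 plasma cell markers, from -0.87 to 0.415 for 8 mast cell and basophil markers and from -0.08 to 0.53 for 3 erythroid markers, and 1 of 10 stromal and endothelial markers was called, Kdr (1.35 ± 0.16). The part of these cell types in the response difference was not tested.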

How the data were processed

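Per the submitters' processing notes, the authors made the deposited log2 values with RMA in Affymetrix Expression Console 1.4.1, in 1 table of 35556 rows. Rows of each untreated array set were matched to the R848 arrays with a pair hidden Markov model on their levels, which keeps row order, and unmatched rows were dropped. The match uses levels of the groups later compared, so it can favour rows with small responses. Its settings were chosen on simulated data, but after response differences under looser settings had been seen. Rows rolled out of register gave 256 and 250 accepted rows, against 23672 and 24141. The roll exceeded the largest offset of 220 rows that the model allows, so this control cannot show slips by a few rows. A direct match of both untreated sets agreed in 20396 of 20396 rows, but it used the same model and levels and cannot show shared errors. Of the array's genome build, the sources used here say nothing.

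The 16 arrays were quantile-normalized and fitted in limma 3.58.1 (R 4.3.3; lmFit, eBayes) with 4 group means. Calls needed a Benjamini-Hochberg adjusted p under 0.05 and a difference of at least 1 log2 unit, and 1 transcript cluster stood for each gene. Errors are SE of the fit or SD over arrays. Python 3.11.15, NumPy 2.4.6, pandas 2.3.3, SciPy 1.17.1, Numba 0.67.0 and Matplotlib 3.10.9 were used, and the fit was tested on simulated data. Members and lists were chosen with earlier results of these data known. Named genes were, from genes called on 3 scales, the 15 largest in each direction, up to 4 called members of each list in each direction, 2 uncalled members for lists with fewer than 4 calls, sort markers, Tlr7, 6 with opposite responses, and 8 in each direction with like start levels. Batf3, Cd274, Cd40, Cd69, Cd80, H2-Aa, H2-Ab1, H2-Eb1, Il1r2, Irf8, Lyz2, Mx1, Relb, Wdfy4 and Xcr1, the genes at or under the array median, and those without an accepted row other than Cd8a and Tlr7 were chosen after their values were seen.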

Additional observations from a re-analysis of the deposited data

Results flagged for a closer look

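Among 326 pairs of a named gene and a group of 5 arrays, 16 had 1 array far from the other 4, and chance gives such an array in about 1 in 20 groups. In untreated CD11b+ cDC, replicate 4 was highest for Cd3e (6.446) and Gp2 (7.188) and lowest for Clec7a (8.051) and Pfkfb3 (8.924). Replicate 3 was lowest for Alox5ap (10.691) and H2-DMa (10.874), replicate 2 lowest for Prdm1 (4.833), and replicate 5 highest for Klf1 (4.269). In CD8α+ cDC after R848, replicate 3 was highest for Epcam (4.387), Hexa (7.514) and Pglyrp1 (7.344), and replicate 4 highest for Cdh1 (4.826). Replicate 5 was lowest for Ifi205 (9.660), Mcm6 (5.837) and Plac8 (9.769), and replicate 2 lowest for Csf3r (3.800). Without the array named here, Hexa, Ifi205, Pfkfb3, Clec7a, Cd3e, Gp2, Cdh1 and Pglyrp1 kept their called response difference, and Mcm6 lost it.

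The responses of the subsets differed by a test of the difference itself in 973 genes. The 6 largest of the genes with called responses in opposite directions were Gzma (response difference 6.181), Cd7 (4.107), Cd3g (3.369) and Nkg7 (3.359), which rose in CD8α+ and fell in CD11b+ cDC, and Ifi205 (-3.893) and Cd36 (-3.791), which did the reverse.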

How the results depend on the processing

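Each count was recomputed under 35 alternatives, 16 of which left out 1 array, and no call of a named gene reversed its direction. Of 120 named genes called, 92 kept the call in every alternative that tested them apart from both stricter call rules, and 19 lost it without 1 array. Leaving out single arrays gave 892 to 1081 called response differences, 1663 to 1728 CD8α+ responses, 1048 to 1122 CD11b+ responses, 906 to 948 start differences, 478 to 611 end differences, 98 to 118 called among 379 list members tested (109 with all arrays), 109 to 119 named genes, 3 to 5 negative controls and a share with a narrower gap of 63.3% to 72.2%. In that order, without a fold minimum the values were 3272, 6562, 5979, 5397 and 1866, then 168 list members, 122 negative controls and 75.9%. With limma's treat they were 120, 688, 277, 341 and 121, then 34 list members, 45 named genes, 1 negative control and 78.3%. A minimum of 2 log2 units gave 145, 382, 161, 233 and 98, then 45 list members, 60 named genes, 1 negative control and 74.5%. Stricter row acceptance left 6011 genes and gave 339, 614, 396, 359 and 192, then 43 list members, 48 named genes, 1 negative control and 72.6%. Looser and tighter acceptance, chosen after seeing the data, gave 1012 and 916 response differences.

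Called negative controls numbered 6 on the deposited scale, 5 with a common median, 6 after cyclic loess, 5 with all 25 arrays, 5 without untreated CD11b+ replicates 4 and 5, and 8 without replicates 4 and 5 of both groups of 5. The share with a narrower gap was 72.7% on the deposited scale and 75.3% in the last of these settings. With the replicate block there were 1012 response differences, 6 negative controls and 73.6%. Same-numbered arrays of replicates 1 to 3 deviated together with correlations of -0.112 to 0.065, so the numbers were not taken to pair samples. Replicates 4 and 5 of both groups of 5 were not compared in this way. Apart from the construction of the stricter rules, the cause of these shifts was not tested. The number of arrays and the share of matched rows limit what could be called.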
